A study of Capra hircus with 2 samples.

Results

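The miR-29 family was measured by small RNA sequencing of goat endometrium, in 1 library of receptive endometrium (R library) and 1 library of pre-receptive endometrium (P library). Members were the known miRNA names whose part after miR- was 29a, 29b, 29c or 29d, with any species prefix, arm or end annotation. They were 8 of the 587 distinct names in the deposited table of known miRNAs, listed in 10 of its 641 entries, and 0 of them were 29d names. Both groups were multiparous Xinong Saanen dairy goats 24 months old, mated naturally after synchronization of estrus. The endometrium was taken on gestational day 5 for the P library and on gestational day 15 for the R library, and the comparison asks how the miRNAs differ before and during receptivity to the embryo. RNA of several goats was pooled into each library, so the difference has no replicate check, and a test on the reads compares these 2 libraries and not the phases.

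Each value is a normalized expression (NE), the reads of a miRNA divided by 1 size factor per library. Each read counts for 0.860 NE in R but 1.16 NE in P throughout the table, and reads were recovered by dividing by this step. The methods of the study describe NE as reads scaled to the clean reads, but the deposited values do not follow that formula, by which a read would count for more in R than in P. The scaling to clean reads given beside the deposited one below is the scaling of that formula. The known names held 1904242 recovered reads in R and 4046632 in P, which is the depth of the listed known miRNAs and not of the whole libraries. A value of 0 still leaves room for up to 3 reads, which correspond to 2.58 NE in R or 3.49 NE in P. The reads carry no molecular identifiers, and intervals and limits therefore cover counting error alone.

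The miR-29 miRNAs are small regulators with a common seed on the 3p arm, the stretch of bases near the 5′ end that pairs with target transcripts. Their best known targets are transcripts of the extracellular matrix, among them collagens, elastin and fibrillin, and low miR-29 accompanies fibrosis in many organs. The matrix of the endometrium is remodelled in early pregnancy, when the stroma prepares for the conceptus. For the goat assembly ARS1.2, 3 miR-29 genes were listed. MIR29B and MIR29C are neighbours on 1 chromosome, with 1 protein-coding gene and 0 other miRNA genes listed between them. MIR29A lies on another chromosome. Whether the assembly holds further miR-29 genes that are not listed was not checked.

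The sequences of 7 names are shown because the comparison rests on which miRNA each name stands for. Capitals mark the seed, bases 2 to 8 from the 5′ end, and the letters are those deposited by the authors, with T for U. The first 3 share a seed and are the 3p sequences of miR-29a and miR-29c.
ssc-miR-29a_L-1R-1: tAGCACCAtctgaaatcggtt
oar-miR-29a_1ss10CT: tAGCACCAtttgaaatcggtt
cgr-miR-29c-3p_R+2: tAGCACCAtttgaaatcggttaa
The next is the miR-29b 3p name, whose seed is altered.
cfa-miR-29b_R-1_2ss6CT21GC: tAGCATCAtttgaaatcagtct
The last 3 come from the 5p arm and have a seed each.
hsa-miR-29c-5p_R+1: tGACCGATttctcctggtgttct
mmu-miR-29a-5p_R+1: aCTGATTTcttttggtgttcaga
hsa-miR-29b-1-5p: gCTGGTTTcatatggtggtttaga

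Counted from 1 at the 5′ end, the 2 sequences of 21 nt under a miR-29a name differ by C10T. With this change oar-miR-29a_1ss10CT had 0 differences over 21 bases from the reference sequence that the authors list for cgr-miR-29c-3p_R+2. It was therefore read as the miR-29c-3p sequence of 21 nt, and cgr-miR-29c-3p_R+2 is the same sequence with 2 more bases at its 3′ end. The name ssc-miR-29a_L-1R-1 had 0 differences from the reference of sheep miR-29a and is called miR-29a-3p in the following. The miR-29b name differs from its reference by C6T, which lies in the seed, and by G21C. The remaining name, oan-miR-29a-2-5p_R+1_2ss4CN14TC, differs from hsa-miR-29c-5p_R+1 over 22 bases by C4N, a base that was not read, and by C22A. Outside the family, 0 known names and 0 of the 621 predicted candidate names carried the seed of miR-29a-3p, that of miR-29c-5p or that of miR-29a-5p.

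Of the 8 names, 5 were above 0 in both libraries, 2 in R alone and 1 in P alone. On the deposited scale miR-29a-3p was higher in the receptive library, the 21 nt form of miR-29c-3p was nearly level, and the 23 nt form and miR-29c-5p were lower. miR-29a-3p and the sequences of miR-29c thus did not move alike. The sizes against 0 depend on how the 2 libraries are scaled to each other, whereas the differences between members do not.

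miR-29a-3p is the most abundant member and ranked 19 of the known names in R and 24 in P. It had 13427 NE (15614.5 reads) in the R library against 9021 NE (7757 reads) in the P library. It was 1.49-fold higher in R, a log2 ratio of 0.57 (95% exact interval 0.53 to 0.61; two-sided exact binomial test, Benjamini-Hochberg adjusted p = 3.07e-186 over 438 names). The R library was the higher one under each of the other 3 scalings tried. Scaled to the clean reads of the study the log2 ratio was 1.36, past 2-fold, and with the sum of known reads it was 2.10. In bulk tissue, fewer cells of a type and less RNA per cell cannot be told apart.

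The miR-29c-3p sequence of 21 nt was listed for 2 precursors, and each entry had 1181 NE in R against 1137 NE in P. The entries sum to 2747 reads in R and 1956 in P. Its log2 ratio was 0.05, and the 95% exact interval of -0.03 to 0.14 included 0 (adjusted p = 0.338, exact binomial test). No difference was detectable on the deposited scale, whereas scaled to the clean reads the sequence was higher in R, with a log2 ratio of 0.84 and an interval of 0.75 to 0.92. The 23 nt form was rarer, with 239 NE in R against 326 NE in P, from 277.5 and 280 reads. Its log2 ratio of -0.45 (95% exact interval -0.69 to -0.20; adjusted p = 0.000718, exact binomial test) put it lower in R, and this direction turned to 0.33 with the clean reads and 1.07 with the sum of known reads as the total. In the R library, miR-29a-3p and the 23 nt form each held a fraction of a read (0.5). The counts of these near-identical sequences are uncertain as far as the authors' counting could divide reads between them.

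The 5p strands, which are usually the less abundant product of the miR-29 hairpins, were far rarer. miR-29c-5p had 45.1 NE in R against 88.4 NE in P in each of 2 entries, which sum to 105 and 152 reads. It was lower in R, and its log2 ratio was -0.97 (95% exact interval -1.34 to -0.60; adjusted p = 3.02e-07, exact binomial test). This direction was no longer distinguishable from 0 with the clean reads (-0.19, interval -0.56 to 0.18) and turned to 0.55 with the sum of known reads. miR-29a-5p had 15.5 NE in R and 15.1 NE in P, from 18 and 13 reads. With so few reads its log2 ratio of 0.03 has a 95% exact interval of -1.08 to 1.18, and a difference smaller than 2-fold was not detectable at this depth.

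The 2 miR-29b names held 8 reads in all, too few to describe miR-29b in these libraries. hsa-miR-29b-1-5p, from the strand opposite the seed-bearing 3p sequence, had 5.16 NE in the R library from 6 reads and was listed at 0 in the P library. Set against the limit of 3 reads, its NE in R was at least 1.48-fold higher, a figure that leaves out counting error, and its log2 ratio has an exact interval that starts at -0.20, below 0. The miR-29b 3p name was listed at 0 in R and had 2.33 NE in P from 2 reads. oan-miR-29a-2-5p_R+1_2ss4CN14TC had 0.860 NE in R from 1 read and was listed at 0 in P. These last 2 names were within the limit of a count of 0 in both libraries.

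**Figure D1:**
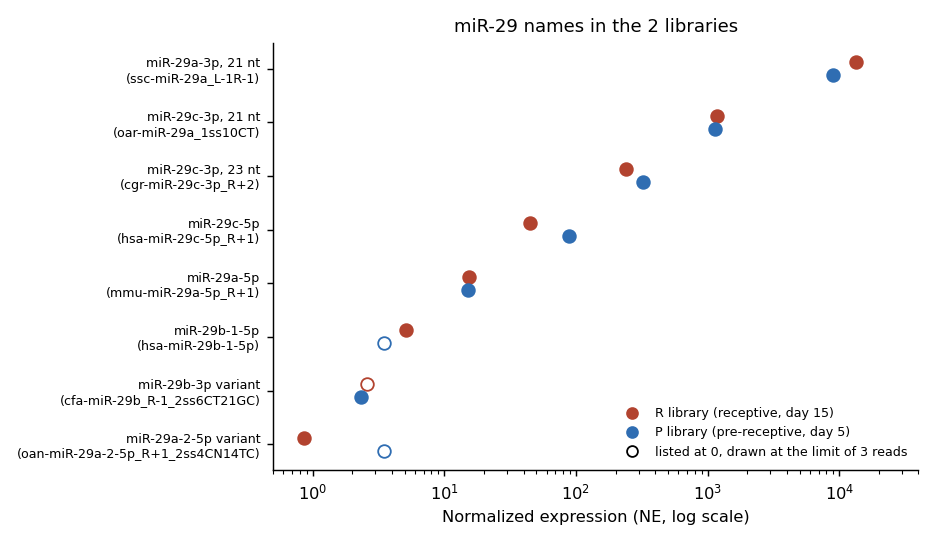
Normalized expression (NE, log scale, as listed for 1 entry) of the 8 miR-29 names in the R library (red) and the P library (blue); open points are names listed at 0, drawn at the limit of 3 reads. miR-29a-3p has 13427 NE in R against 9021 NE in P, the 21 nt miR-29c-3p points lie side by side at 1181 and 1137 NE, and the 23 nt form and miR-29c-5p lie to the left in R on this scale, which reverses with the sum of known reads as the total.

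On the deposited scale, 0 of the 5 miR-29 names tested were past 2-fold. The names tested were those above 0 in both libraries that reached 1 NE in either. Among all 438 such names, 39.3% were past 2-fold, 22.8% (100 names) higher in R and 16.4% (72 names) lower in R. By the exact binomial test, 3 of the 5 miR-29 names had an adjusted p under 0.05, 1 higher in R and 2 lower in R, where 51.1% of all names tested did so. With such a background a small p is common and says little by itself.

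The scaling between the libraries moved every log2 ratio by the same amount. This shift was 0.78 with the clean reads of the study as the total, 1.52 with the sum of known reads, and 0.07 with the median log2 ratio of well covered names set to 0. The median over the 438 names was 0.03 as deposited, 0.81 with the clean reads and 1.55 with the sum of known reads. Of the names past 2-fold, 58.1% were higher in R as deposited, 86.7% (195 against 30) with the clean reads and 96.0% (315 against 13) with the sum of known reads. With the clean reads 1 miR-29 name was past 2-fold, miR-29a-3p, and with the sum of known reads 4 were, all higher in R.

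Relative to the median of all names tested, which no scaling changes, miR-29a-3p lay 0.54 higher on the log2 scale. The 21 nt miR-29c-3p lay 0.03 and miR-29a-5p 0.01 above the median. The 23 nt form lay at -0.48 and miR-29c-5p at -0.998 from it. Among the 79 names with at least 2000 reads over both libraries, the median log2 ratio was -0.30, and 24 of them had a larger log2 ratio than miR-29a-3p.

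**Figure D2:**
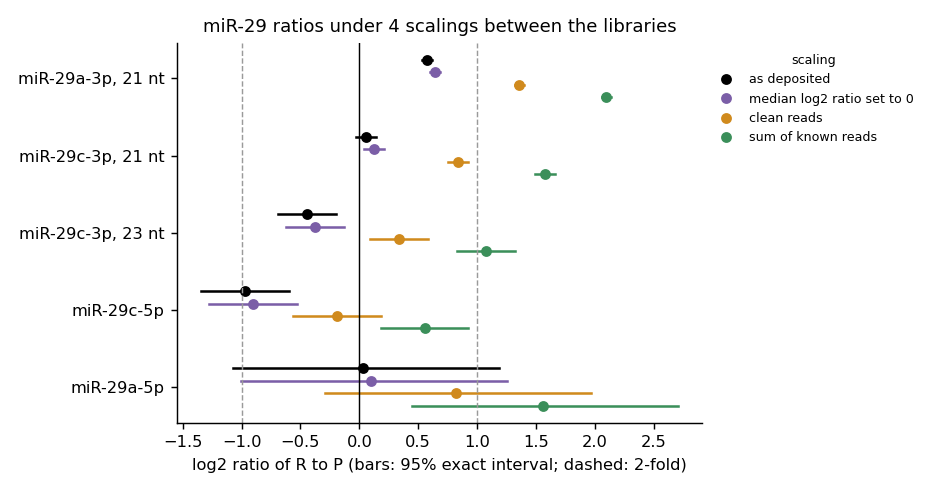
Log2 ratio of R to P of the 5 miR-29 names above 0 in both libraries, with 95% exact intervals as bars, under 4 scalings between the libraries (colours); dashed lines mark 2-fold. Every name moves by the same shift, so that miR-29a-3p goes from 0.57 as deposited to 1.36 with the clean reads, and miR-29c-5p from -0.97 to -0.19, while their order is kept.

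**Figure D3:**
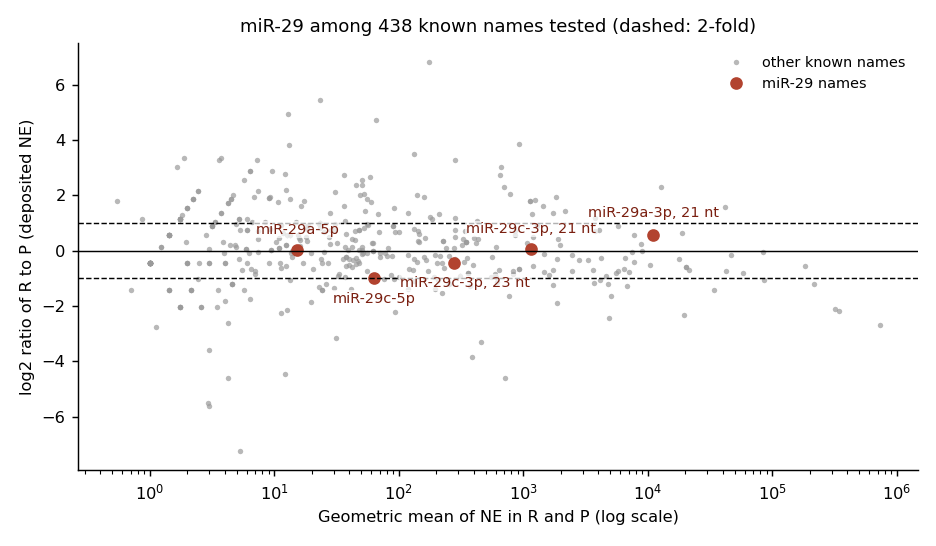
Log2 ratio of R to P of the deposited NE against the geometric mean NE of both libraries (log scale) for the 438 known names tested; miR-29 names are red, dashed lines mark 2-fold. The 5 miR-29 names lie between -0.97 and 0.57, inside the 2-fold lines on this scale, which 39.3% of all names exceed.

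Comparisons within the family need no scaling between the libraries, because both sequences are read in the same library. There were 19.4 reads of miR-29c-3p (both lengths) per 100 reads of miR-29a-3p in R, against 28.8 in P. These values count the reads of both entries of the 21 nt form, and with the reads of 1 entry they were 10.6 and 16.2. On the log2 scale, the ratio of R to P was 0.57 smaller for miR-29c-3p than for miR-29a-3p (difference -0.57, 95% exact interval -0.66 to -0.48). Between the forms of equal length, 21 nt, the difference was -0.52 (interval -0.61 to -0.43), so it was there without the longer form. All 3 sequences carry the same seed, so the reads with this seed were a different mixture in each library.

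The same was seen in the composition of the family. miR-29a-3p made up 83.2% of the miR-29 reads of R (95% exact interval 82.7% to 83.7%), against 76.3% of those of P (75.5% to 77.2%). miR-29c-3p of both lengths made up 16.1% of those of R (15.6% to 16.7%) against 22.0% for P (21.2% to 22.8%). With the reads of 1 entry for each name, miR-29c-3p made up 9.52% for R (9.09% to 9.97%) and 13.8% for P (13.1% to 14.5%), and miR-29a-3p 90.0% and 85.2%. The sizes of these shares thus depend on how the entries are counted, while the intervals of the libraries did not overlap for either sequence in both ways of counting.

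The ends and arms of miR-29c differed in the same direction. Per 100 reads of the 21 nt form there were 10.1 reads of the 23 nt form in R and 14.3 in P (20.2 and 28.6 with the reads of 1 entry), a difference of log2 ratios of -0.50 (95% exact interval -0.76 to -0.24). Per 100 reads of miR-29c-3p there were 3.47 reads of miR-29c-5p in R and 6.80 in P, a difference of -0.97 (interval -1.35 to -0.59). The 23 nt form was thus lower in the receptive library relative to the 21 nt form. The 5p strand of miR-29c was lower there relative to the 3p reads of both lengths. The study reports that the length distribution of the reads differed between the libraries, and its part in these differences was not tested. For miR-29a, the 5p strand had 0.115 reads per 100 reads of the 3p strand in R and 0.168 in P, a difference of -0.54 whose interval of -1.65 to 0.61 included 0. Between the 5p strands, miR-29c minus miR-29a, the difference was -1.003, with an interval of -2.22 to 0.18 that also included 0. Whether the arms of miR-29a and miR-29c differed from each other in this respect was not tested.

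**Figure D4:**
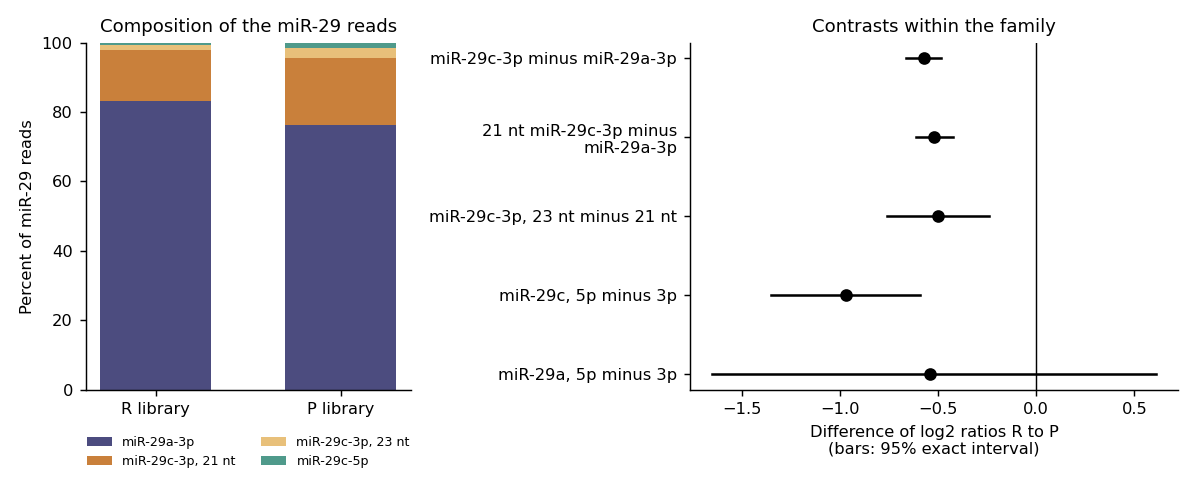
Left, percent of miR-29 reads held by each sequence in the R and P libraries (names with smaller shares are not drawn): miR-29a-3p holds 83.2% in R and 76.3% in P. Right, differences between sequences in their log2 ratio of R to P with 95% exact intervals; 4 of the 5 intervals drawn lie below 0, and that of the miR-29a arms includes 0.

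Summed over the 8 names, each counted once, the family had 14913 NE in R against 10590 NE in P. The log2 ratio was 0.49 (95% exact interval of the summed reads 0.46 to 0.53). The sum follows its most abundant name, since without miR-29a-3p the log2 ratio was -0.078 (interval -0.18 to 0.03). As a share of the recovered reads of all known names, miR-29 made up 0.986% for R (95% exact interval 0.972% to 1.00%) against 0.251% for P (0.246% to 0.256%). Of the scalings tried, this one puts miR-29 highest in R. The largest single value in that total, aja-miR-143_1ss22GT, a miRNA of smooth muscle and other mesenchymal cells, had 289634 NE in R against 1866274 NE in P.

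Values of cell type markers are given on the deposited scale, where 22.8% of all 438 names were past 2-fold higher in R and 16.4% lower, with a median log2 ratio of 0.03. Of the epithelial miRNAs (miR-200 family, miR-141, miR-203, miR-205, miR-375 and miR-429), 9 of the 10 names tested were past 2-fold higher in R and 0 lower (median log2 ratio 2.89), with a summed NE of 34866 in R and 6726 in P. The most abundant was hsa-miR-141-3p_R-1, with 28337 NE in R and 5791 in P. Of the muscle miRNAs, 9 of 10 were past 2-fold lower in R and 0 higher (median -2.55), with a summed NE of 292640 in R and 1883319 in P, nearly all of it from aja-miR-143_1ss22GT. The stromal miRNAs (miR-199a, miR-199b and miR-214), which mark the fibroblast-like cells that make most matrix, were within 2-fold for 7 of 7 names (median -0.05), with 97321 NE in R and 97156 in P. Of the blood cell miRNAs, 2 of 8 names were past 2-fold higher in R and 0 lower (median 0.35), a share near that of all names, with a summed NE of 12220 in R and 12134 in P. The most abundant of these was cgr-miR-142-5p_L-2R+1 in R (5689 NE in R and 2524 in P) and cgr-miR-486-5p in P (5052 in R and 8073 in P). These counts depend on the scaling. With the clean reads as the total, 195 of all 438 names were past 2-fold higher in R and 30 lower. On that scale 2 of the 7 stromal and 5 of the 8 blood cell names were past 2-fold higher. Of the muscle names, 6 of 10 were past 2-fold lower. With the sum of known reads, 315 of all 438 names were past 2-fold higher and 13 lower. All 7 stromal names were then past 2-fold higher, and of the muscle names 5 were lower and 1 higher. The epithelial names past 2-fold higher were 10 of 10 under both, beside the 195 and 315 of all 438 names. Listed at 0 in P were mmu-miR-203-5p_1ss11GA among the epithelial names and oan-miR-223-3p_1ss22AT among the blood cell names. No name carried the number of miR-200b, miR-133b or miR-206 among those analysed here. The part of cell composition in the miR-29 values was not tested.

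Other miRNAs known from work on matrix and fibrosis were set beside the family. Of 35 names from 15 of the 17 miRNAs in this list, 3 were past 2-fold higher in R, 9 lower in R and 23 within 2-fold, with a median log2 ratio of -0.24. Of all 438 names tested, 100 were past 2-fold higher and 72 lower, with a median of 0.03. No name carried the number of miR-101 or miR-133b. Names entered the list by number alone. The name cgr-miR-101b-3p_1ss22GT, of miR-101b, was therefore outside the list and its counts, with 8689 NE in R against 43585 in P (log2 ratio -2.33). With the clean reads as the total, 13 of the 35 names were past 2-fold higher and 5 lower, against 195 and 30 of the 438. As deposited but with at least 10 reads in each library, 1 of 27 names was past 2-fold higher and 6 lower. Under that filter 47 of all 279 names were past 2-fold higher and 40 lower. The names with most signal over both libraries together were oar-miR-26a (142847 NE in R against 330582 in P, log2 ratio -1.21) and, next to it, oar-miR-26b_R+1 (-1.07), of a family that acts on cell growth and TGF-beta signalling. The far rarer hsa-miR-26b-3p (1.36) and hsa-miR-26a-1-3p_1ss9TC (1.15, from 9 reads in R and 3 in P, 95% exact interval -0.85 to 3.67) were past 2-fold higher in R. Names of 1 miRNA also differed in sign for miR-30c and miR-214, with oar-miR-30c_R+2 at -0.14 and hsa-miR-214-5p at -0.17, both with an interval that included 0. cfa-miR-145, of smooth muscle, had a log2 ratio of -2.42 (2123 NE in R against 11339 in P), and oar-miR-133_L+1, which targets collagen and connective tissue growth factor transcripts in the heart, had one of -4.62 (144.9 NE in R against 3558 in P). Both are in the muscle list too, as are 5 of the 9 names past 2-fold lower in R.

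Members of the miR-30 group lay closer to miR-29a-3p. oar-miR-30c_R+3 had a log2 ratio of 0.75, oar-miR-30b_R+1 0.70, hsa-miR-30d-3p 0.62 and oar-miR-30a-3p_R+1_1ss18GA 0.28, while bta-miR-30e-5p_R-1_1ss23CA was at -0.64. The name oar-miR-30a-3p_R+1_1ss18GA carries a base change from its reference. Which member of the miR-30 group its sequence stands for was not checked. Among those linked to fibroblasts, hsa-miR-214-3p was at 0.72, oar-miR-199a-3p at -0.05 and hsa-miR-199b-5p_R-1_2ss10TC17TC at -0.24, while bta-miR-199b, the other name of miR-199b, was at 0.90 (7929 NE in R against 4238 in P). hsa-miR-192-5p had a log2 ratio of -1.17, and hsa-miR-133a-5p one of -5.52 from 1 read in R and 34 in P. hsa-miR-21-5p_R+2_1ss4CN rested on 26 reads in R against 2 in P (log2 ratio 3.26, 95% exact interval 1.27 to 6.38). Every direction given here is that of the deposited scale, and those between -1.52 and 0 turn with the sum of known reads as the total.

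**Figure D5:**
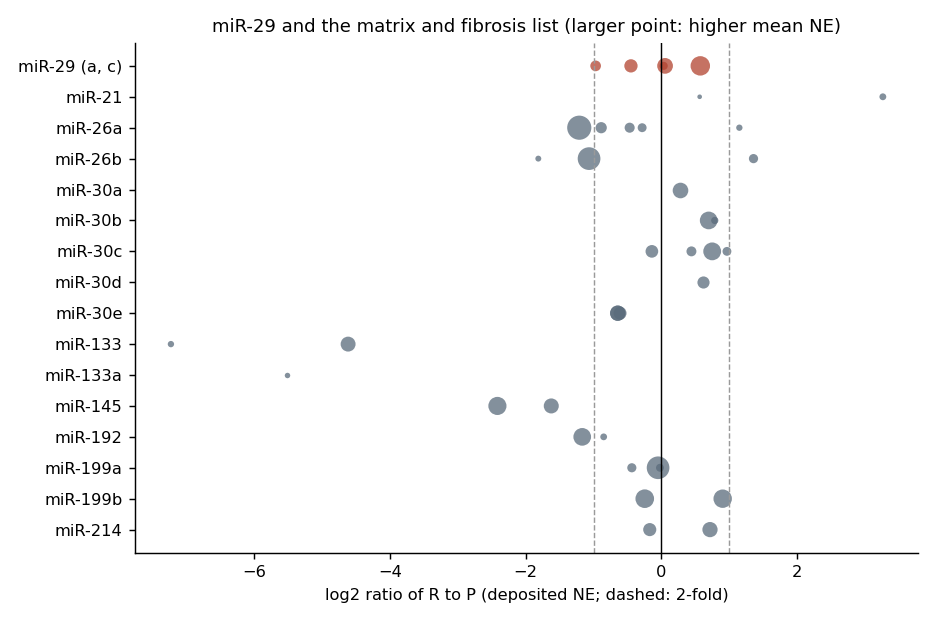
Log2 ratio of R to P of the deposited NE for the 5 miR-29 names (red) and the 35 names of the matrix and fibrosis list (grey, 1 row per number in the name). Larger points have a higher mean NE and dashed lines mark 2-fold. The miR-29 points lie between -0.97 and 0.57, near those of miR-30 and miR-199, and miR-133 and miR-145 lie left of the 2-fold line.

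Of the 61 names outside the family with at least 1000 reads in each library, the 5 nearest to miR-29a-3p in log2 ratio were hsa-miR-126-3p (0.58), hsa-miR-126-5p (0.64), oar-miR-30b_R+1 (0.70), bta-miR-106b (0.42) and oar-miR-30c_R+3 (0.75). miR-126 is a miRNA of endothelial cells. The 5 nearest to the 21 nt miR-29c-3p were eca-miR-24_R+1 (-0.02), oar-miR-16b_R+2 (-0.03), oar-miR-199a-3p (-0.05), hsa-miR-423-3p (0.19) and hsa-miR-151b_R+3 (0.24). With 2 libraries, likeness means this 1 ratio.

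The deposited conservation table names precursors of miR-29a to miR-29d for 13 of its 23 species, 30 names in all, with 2 for sheep and 1 for cow. The names of the 8 goat sequences carry 7 species prefixes. The deposited table of predicted targets holds 0 miR-29 names, and target transcripts of miR-29 were not analysed here.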

How the data were processed

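Small RNA of the endometrium was sequenced in single-end reads on an Illumina instrument. With the ACGT101-miR program the authors removed low-quality and other RNA reads, searched the rest against miRBase 20.0, and deposited 1 normalized signal (NE) per miRNA and library. The goat genome build is not given in the sources used here. The columns of the authors' own comparison (fold, log2 and p) and the signal of the candidate table were not used. The members and lists were chosen with earlier results of these data known.

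The signal was divided by its most frequent value above 0, taken as 1 read. Of the names above 0, 85.2% in R and 87.5% in P then had a whole number of reads within 0.02 read. A name listed for several precursors (54 names) kept its NE as listed, and its reads were summed over the entries. Summed in this way 47 of 49 such names above 0 in R were whole, against 15 by 1 entry. Because fractions remained, rounded reads were tested by the exact binomial test, two-sided, with the share expected from equal NE and Benjamini-Hochberg adjustment over 438 names. Ratios have Clopper-Pearson intervals, and differences of log2 ratios have exact intervals of the conditional odds ratio. Fisher's exact test, which the study applied to normalized values, was an alternative on recovered reads with the clean reads as totals, beside other scalings, filters, roundings and a pseudocount. Named miRNAs were every miR-29 name and the most abundant name of each number in the matrix and fibrosis list. The 5 names nearest in ratio to miR-29a-3p and to the 21 nt miR-29c-3p were also named. Further names with the numbers of miR-26, miR-30c, miR-199b and miR-214 that had the other sign were added after their values were seen. Names were assigned to the lists by number and not by sequence. The lists, with those of epithelial, stromal, muscle and blood cell miRNAs, come from general knowledge, and the marker names at 0 or most abundant were named after their values were seen. Calls and intervals were tested on simulated data. Statistics were computed with scipy 1.17.1 and pandas 2.3.3 in Python 3.11.15, and plots were drawn with matplotlib 3.10.9.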

Additional observations from a re-analysis of the deposited data

How the results depend on the processing

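Scaling was the choice that moved most. With the clean reads as the total, the log2 ratio was 0.84 for the 21 nt miR-29c-3p, now past the test, 0.33 for the 23 nt form, reversed, and -0.19 for miR-29c-5p, no longer past it. Fisher's exact test with the clean reads as totals gave these 3 names adjusted p = 2.50e-86, 0.0128 and 0.426. With the sum of known reads, the log2 ratios were 1.58, 1.07 (reversed) and 0.55 (reversed), and miR-29a-5p reached 1.56 and passed the test. With the median set to 0, the 21 nt form had 0.12 and passed it. These follow from adding 1 shift to every name. The log2 ratio of the summed signal was 1.28, 2.02 and 0.56 under these scalings, -0.078 (reversed) without miR-29a-3p, and 0.45 with every entry summed, which was added once the data had been seen. The other results for single names kept their direction under the pseudocount of 1, for which no new test was run. They kept their side of the threshold without adjustment and with the reads of 1 entry, the last also chosen after the data were seen. The ratio is the same by construction in these alternatives. Without adjustment a p can only become smaller, so a name past the test could not be lost.

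The differences within the family kept their direction under all 19 alternatives run, rounding, end forms and the reads of 1 entry included. Many of these could hardly change a direction. Rounding barely alters a count, and for the miR-29a arms the reads of 1 entry are the same reads. The difference between miR-29c-3p and miR-29a-3p ranged from -1.02 (23 nt form alone) to -0.52 (21 nt form alone). It was -0.93 with oar-miR-29a_1ss10CT grouped as miR-29a. The differences of the miR-29a arms and of the 5p strands had intervals that included 0 in each of theirs, the latter run once the data had been seen. The reads of 1 entry moved the numbers of miR-29c-3p reads per 100 of miR-29a-3p to 10.6 in R and 16.2 in P.

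Names past 2-fold were 195 higher and 30 lower with the clean reads, 315 and 13 with the sum of known reads, 47 and 40 with at least 10 reads in each library, 185 and 127 with 0 set to 0.001 and no filter on low values, and 37 lower (84 higher) with Fisher's exact test at an unadjusted p under 0.05. miR-29 names past 2-fold and higher in R numbered 1 with the clean reads and 4 with the sum of known reads. The counts of the cell marker lists under the 3 other scalings, added once the data had been seen, stayed within 1.5 times of those as deposited in 18 of 24 cases and moved further in 6, each time toward R. In the matrix and fibrosis list the numbers were 13 higher and 5 lower, 21 and 3, and, with at least 10 reads, 1 higher. Depth limits miR-29a-5p and the miR-29b names, which rest on at most 18 reads in a library.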

Other observations

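The lower ratio of the longer miR-29c-3p form was set beside other pairs of names whose sequences differ only by bases added at the 3′ end, a comparison chosen after seeing the data. Among names with at least 200 reads over both libraries there were 4 such pairs outside miR-29. The difference of log2 ratios, longer minus shorter, was -0.62 for oar-let-7b_R+2 against oar-let-7b_R+1 (95% exact interval -0.68 to -0.56). It was 0.44 for hsa-miR-141-3p_R+1 against hsa-miR-141-3p_R-1 (interval 0.23 to 0.65) and 0.44 for mmu-let-7c-5p_R+2_1ss17AG against oar-let-7b_R+1 (0.24 to 0.64). For sha-miR-125a_R+2 against hsa-miR-125b-5p it was -0.20, with an interval of -0.44 to 0.03 that included 0. The longer forms therefore did not differ in 1 direction, and the -0.50 of miR-29c-3p lay within the range of these pairs. The lower end of that range rests on the oar-let-7b_R+2 pair alone. Both let-7 pairs share the shorter name oar-let-7b_R+1, so they are not independent.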
